A study of Mus musculus with 6 samples.

Results

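The genes described here are 10 core components of the circadian clock, Arntl, Clock, Per1, Per2, Per3, Cry1, Cry2, Nr1d1, Nr1d2 and Dbp. They were chosen by name, with earlier results of these data known. They are the rows of a table of 43346 genes whose Ensembl identifier carries one of these symbols in the GENCODE M21 annotation. Each of the 10 symbols had 1 row. Total RNA came from primary mouse embryonic fibroblasts of the C57BL/6 strain at passage 9, cells grown out of embryos that have a limited life span in culture. One group received 3 µM erastin, an inhibitor of the cystine/glutamate antiporter that is used to induce the iron-dependent cell death called ferroptosis, and the control group received the solvent DMSO, with RNA taken 24 h later. Each group had 3 libraries, and no allele or other agent distinguished them. The labels do not say whether the replicates came from separate embryos or cultures, so p-values measure the spread between these libraries, which may be technical.

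The circadian clock is a transcriptional loop with a period of about a day that runs inside most cells, fibroblasts included. The proteins of Arntl (BMAL1) and Clock bind DNA together at E-boxes and switch on the Per and Cry genes, whose proteins return to the nucleus and block that pair. In an attached loop the nuclear receptors encoded by Nr1d1 and Nr1d2 (REV-ERB alpha and beta) repress Arntl, while the ROR receptors activate it through the same elements. Dbp is an output of the E-box arm and encodes a transcription factor that binds D-boxes. In culture each cell keeps its own rhythm, and medium changes or other stimuli can align the cells of a dish. The labels give no time of day and no synchronising step, and each group was sampled at a single time, so a change in level and a change in the phase of a rhythm cannot be told apart.

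Total counts per library ran from 13333911 to 20509970, and all 10 clock genes passed the filter on low counts, with 53 reads or more in every library. Levels are given as CPM, read counts scaled to library size with TMM factors. All 10 fibroblast markers examined had reads in every library. Their summed level was 28895 to 30051 CPM in DMSO and 17012 to 18969 CPM with erastin. In the edgeR test 9 of the 10 were lower and 0 higher, against 21.5% lower and 21.6% higher among all genes tested. Several markers of other cell types stayed at or below 1.2 CPM in each library. These were Epcam, Cdh1, Krt8, Krt14, Pecam1, Cdh5, Ptprc, Myod1, Myog, Sox10 and Elavl3. Krt18, Adgre1, Cd68, Tek and Kdr peaked at 2.49 to 8.71 CPM. Lyz2 reached 39.2 CPM (erastin replicate 2), Des 68.2 (erastin replicate 2) and Tubb3 80.9 (DMSO replicate 3). No marker was at 0 in all 6 libraries. The summed level of 4 endothelial markers was 4.66 to 7.10 CPM in DMSO and 13.2 to 16.4 with erastin (Kdr and Tek passed as higher), that of 3 muscle markers 35.5 to 45.3 and 65.0 to 68.4 (Des higher), and that of 3 neural markers 56.2 to 81.1 and 36.9 to 45.7 (Tubb3 lower). None of the 5 epithelial or 4 blood cell markers passed in edgeR. Cd68 and Lyz2 had an unadjusted p under 0.05 in edgeR, and 4 epithelial markers were too low to be tested. The epithelial sum was 2.18 to 3.17 CPM in DMSO and 2.14 to 3.17 with erastin. The blood cell sum was 17.9 to 32.4 CPM in DMSO and 21.9 to 48.6 with erastin, so both sums overlapped between the groups. The part of these marker shifts in the clock gene results was not tested, and in bulk RNA fewer cells of a type and less RNA per cell cannot be told apart.

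Erastin-treated fibroblasts had more RNA of the activator genes Arntl and Clock, of the repressor genes Per1 and Cry2 and of the receptor gene Nr1d1, and less of Per3 and Dbp. The extremes were Arntl, 4.65-fold higher, and Dbp, 5.12-fold lower. Of the 10 genes, 7 passed edgeR's quasi-likelihood test (Benjamini-Hochberg adjusted p over all genes tested below the threshold of 0.05), 5 of them higher and 2 lower. Among all 14000 genes tested 43.1% passed, 21.6% as higher and 21.5% as lower. Changes of 1 log2 unit or more among genes that passed were seen in 4 of the 10 (Arntl, Dbp, Nr1d1 and Per1), against 12.2% of all genes tested. The libraries of the groups did not overlap for 8 of the 10 genes, against 52.5% of all genes tested. The median log2 fold change was 0.50 over the 10 genes and -0.0014 over all genes, and the median absolute value was 0.93 against 0.41. Because the 10 genes were chosen with earlier results known, these comparisons with all genes are a description.

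**Figure D1:**
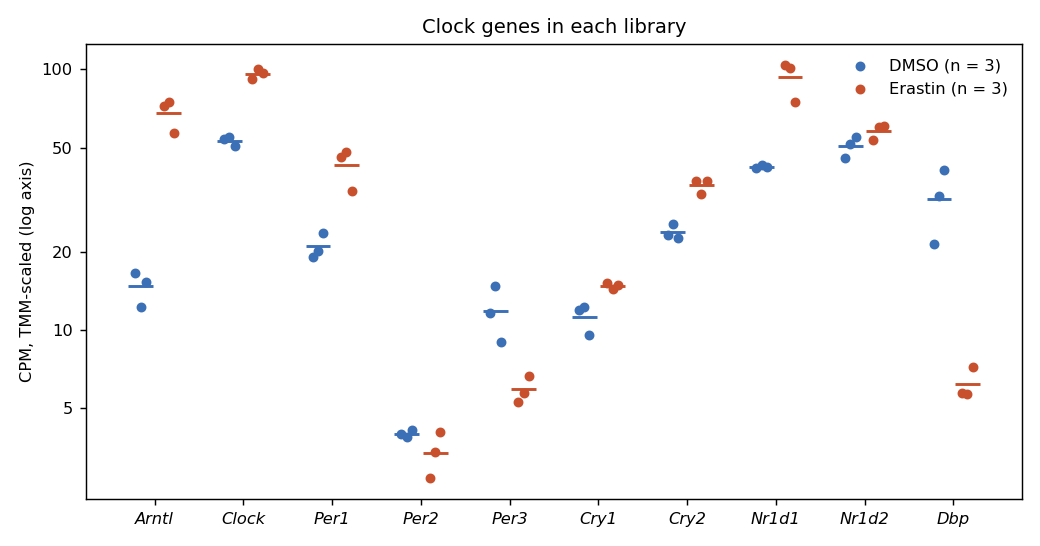
Level of each clock gene in each of the 6 libraries, in TMM-scaled CPM on a log axis. Points are libraries (DMSO and erastin, 3 each) and short lines are group means. Arntl lies between 12.3 and 16.5 CPM in DMSO and between 57.1 and 75.0 CPM with erastin, while Dbp moves the opposite way.

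Both genes of the activating pair rose. Arntl (ENSMUSG00000055116.7; chr7:113207465-113314126, plus strand, GRCm38) stood at 16.5, 12.3 and 15.3 CPM in DMSO replicates 1, 2 and 3 and at 72.1, 75.0 and 57.1 CPM in erastin replicates 1, 2 and 3. Every erastin library was far above the highest DMSO library, and erastin replicate 3 was the lowest of its group. The log2 fold change was 2.22 (SE 0.14, edgeR adjusted p = 1.74e-08), a 4.65-fold rise with a 95% interval of 3.8 to 5.69. Clock (ENSMUSG00000029238.8; chr5:76209868-76304792, minus strand) encodes the partner of BMAL1. It had 54.1, 55.1 and 50.6 CPM in DMSO and 91.8, 100.2 and 96.4 CPM with erastin. Its groups were tight and well apart, and the rise was 1.80-fold (95% interval 1.59 to 2.05, log2 fold change 0.85, SE 0.085, edgeR adjusted p = 1.65e-06).

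RefSeq (GRCm38.p6, the assembly known as mm10, which the submitters' processing notes name) lists 2 starts of Arntl, and the window of the second, from 250 bases before to 50 after it, holds the ROR element letters TAGGTCA (both strands searched, no overlap with another motif searched), beginning at base 31 when the start is base 1. REV-ERB and ROR receptors compete for such elements. TAGGTCA occurs in 2.61% of the 32851 windows of the same length in the table. The window is shown because Arntl had the largest rise of the 10 genes and because REV-ERB proteins act on Arntl through elements of this kind, with the 7 letters in capitals, 5′ to 3′ on the gene's strand at chr7:113207261-113207560.
Arntl: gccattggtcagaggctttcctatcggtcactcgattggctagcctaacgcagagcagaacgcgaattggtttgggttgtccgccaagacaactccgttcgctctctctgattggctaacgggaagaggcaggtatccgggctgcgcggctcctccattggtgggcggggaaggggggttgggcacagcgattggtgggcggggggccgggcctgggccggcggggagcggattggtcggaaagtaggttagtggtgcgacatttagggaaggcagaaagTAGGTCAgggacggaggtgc

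The repressor genes did not move as a block. Per1 (ENSMUSG00000020893.13; chr11:69095217-69109960, plus strand), a Period gene known for rapid induction by many stimuli, had 19.0, 20.2 and 23.6 CPM in DMSO and 46.3, 48.2 and 34.2 CPM with erastin. The groups did not overlap, and erastin replicate 3 again lay nearest to DMSO. Per1 rose 2.05-fold (95% interval 1.66 to 2.54, log2 fold change 1.04, SE 0.14, edgeR adjusted p = 3.89e-05). Per3 (ENSMUSG00000028957.8; chr4:151003652-151044665, minus strand), a Period gene that is largely dispensable for the core oscillation, went the other way. It had 11.6, 14.7 and 9.03 CPM in DMSO and 5.31, 5.75 and 6.69 CPM with erastin, again without overlap. Per3 fell, with a log2 fold change of -0.9996 (95% interval -1.49 to -0.51, SE 0.23, edgeR adjusted p = 0.00261). Per2 (ENSMUSG00000055866.9; chr1:91415982-91459324, minus strand), whose product pairs with the CRY proteins, was sparse, with 53 to 78 reads a library. It had 4.0, 3.88 and 4.13 CPM in DMSO and 2.70, 3.41 and 4.04 CPM with erastin. Those groups overlapped and Per2 did not pass (log2 fold change -0.24, 95% interval -0.93 to 0.45, edgeR adjusted p = 0.582), an interval that spans no change.

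Cry2 (ENSMUSG00000068742.7; chr2:92403646-92434043, minus strand) and Cry1 (ENSMUSG00000020038.9; chr10:85131700-85185064, minus strand) encode the cryptochromes, the PER partners that directly repress the CLOCK and BMAL1 pair. Cry2 had 23.1, 25.4 and 22.6 CPM in DMSO and 37.2, 33.3 and 37.4 CPM with erastin. It rose 1.52-fold without overlap of the groups (95% interval 1.28 to 1.80, log2 fold change 0.60, SE 0.12, edgeR adjusted p = 0.000721). Cry1 had 11.9, 12.3 and 9.57 CPM in DMSO and 15.1, 14.3 and 14.9 CPM with erastin. All 3 erastin libraries lay above all 3 DMSO libraries, but Cry1 did not pass (log2 fold change 0.39, SE 0.17, 95% interval 0.025 to 0.75, edgeR unadjusted p = 0.0376 and adjusted p = 0.0790). When libraries were scaled by total count alone it passed, at a log2 fold change of 0.45 (edgeR adjusted p = 0.0476, the other 14 of its 15 alternatives reaching up to 0.209).

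Start windows were listed for 9 of the 10 genes (13 windows), and Per2 had none. Both strands were searched for the E-box CACGTG, bound by the BMAL1 and CLOCK pair, the D-box TTATGTAA, bound by DBP and its relatives, the ROR element above and the cAMP response element TGACGTCA. Apart from Arntl, the letters occurred in windows of Per1 and Cry1 (1 E-box each) and Per3 (2 D-boxes). Among all windows of this length 7.15% hold CACGTG, 0.938% hold TTATGTAA and 1.79% hold TGACGTCA, which none of the 13 windows held. No match overlapped another. These 3 windows are shown because they held the remaining matches. The other window of Per1 and of Arntl, and all windows of Clock, Cry2, Nr1d1, Nr1d2 and Dbp, held none of the motifs. For Cry2 and Nr1d1 the bases from the listed start onward were not found in a GENCODE M21 transcript of the gene. A link between the letters and the direction of change was not tested. The E-box of Per1 begins 166 bases and that of Cry1 60 bases before the start, and the D-boxes of Per3 begin 205 and 158 bases before it. Capitals mark the matches, 5′ to 3′ on each gene's strand, for Per1 at chr11:69098699-69098998 (the first of its 2 starts), Cry1 at chr10:85185005-85185304 and Per3 at chr4:151044616-151044915. A match describes letters and not a bound site.
Per1: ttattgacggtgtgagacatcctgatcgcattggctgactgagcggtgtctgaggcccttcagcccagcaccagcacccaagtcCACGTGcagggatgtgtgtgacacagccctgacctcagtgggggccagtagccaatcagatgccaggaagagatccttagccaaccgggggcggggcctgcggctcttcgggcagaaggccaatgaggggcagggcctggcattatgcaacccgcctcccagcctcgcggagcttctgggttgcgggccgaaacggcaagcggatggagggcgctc
Cry1: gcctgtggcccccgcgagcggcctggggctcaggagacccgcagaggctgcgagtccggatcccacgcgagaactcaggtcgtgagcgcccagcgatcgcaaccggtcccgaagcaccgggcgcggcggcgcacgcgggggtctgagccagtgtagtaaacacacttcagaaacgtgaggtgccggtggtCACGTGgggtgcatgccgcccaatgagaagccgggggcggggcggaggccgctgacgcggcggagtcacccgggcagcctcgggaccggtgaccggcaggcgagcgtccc
Per3: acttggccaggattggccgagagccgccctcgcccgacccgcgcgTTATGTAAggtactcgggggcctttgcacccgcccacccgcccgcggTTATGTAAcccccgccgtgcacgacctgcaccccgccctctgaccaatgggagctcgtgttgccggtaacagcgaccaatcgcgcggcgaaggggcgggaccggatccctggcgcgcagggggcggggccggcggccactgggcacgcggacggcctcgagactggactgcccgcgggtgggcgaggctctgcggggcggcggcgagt

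Of the REV-ERB receptor genes, Nr1d1 rose and Nr1d2 did not pass. Nr1d1 (ENSMUSG00000020889.11; chr11:98767932-98775333, minus strand) stood at 41.9, 42.9 and 42.3 CPM in DMSO, the tightest DMSO values of the 10 genes, with a coefficient of variation of 1.24%. In erastin libraries it had 104.2, 101.1 and 75.2 CPM. It rose 2.21-fold (95% interval 1.86 to 2.62, log2 fold change 1.14, SE 0.11, edgeR adjusted p = 1.71e-06), so that the gene of a repressor of Arntl and Arntl itself were both higher at 24 h. Nr1d2 (ENSMUSG00000021775.10; chr14:18204054-18239127, minus strand) had 45.6, 51.6 and 55.0 CPM in DMSO and 53.4, 60.0 and 60.6 CPM with erastin, which overlapped. Its log2 fold change of 0.19 did not pass (SE 0.10, 95% interval -0.023 to 0.41, edgeR adjusted p = 0.139). Scaled by total count alone, Nr1d2 was at 0.26 and passed (edgeR adjusted p = 0.0479; range over its 15 alternatives 0.0479 to 0.721).

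Dbp (ENSMUSG00000059824.6; chr7:45705088-45710203, plus strand), the E-box output gene, had 21.4, 32.8 and 41.3 CPM in DMSO and 5.73, 5.69 and 7.21 CPM with erastin. The DMSO values were the most scattered of the 10 genes, with the highest 1.93 times the lowest, yet the lowest of them was still above every erastin library. Dbp fell by 2.35 on the log2 scale, which is 5.12-fold lower (95% interval of the log2 value -2.81 to -1.90, SE 0.21, edgeR adjusted p = 7.12e-07). It therefore moved against Per1 and Cry2, which like Dbp are known targets of the BMAL1 and CLOCK pair. Of the other Per and Cry genes, Per3 fell as Dbp did, and Per2 and Cry1 did not pass. Among all genes tested, 97.9% had an absolute log2 fold change no larger than that of Dbp and 97.6% one no larger than that of Arntl.

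**Figure D2:**
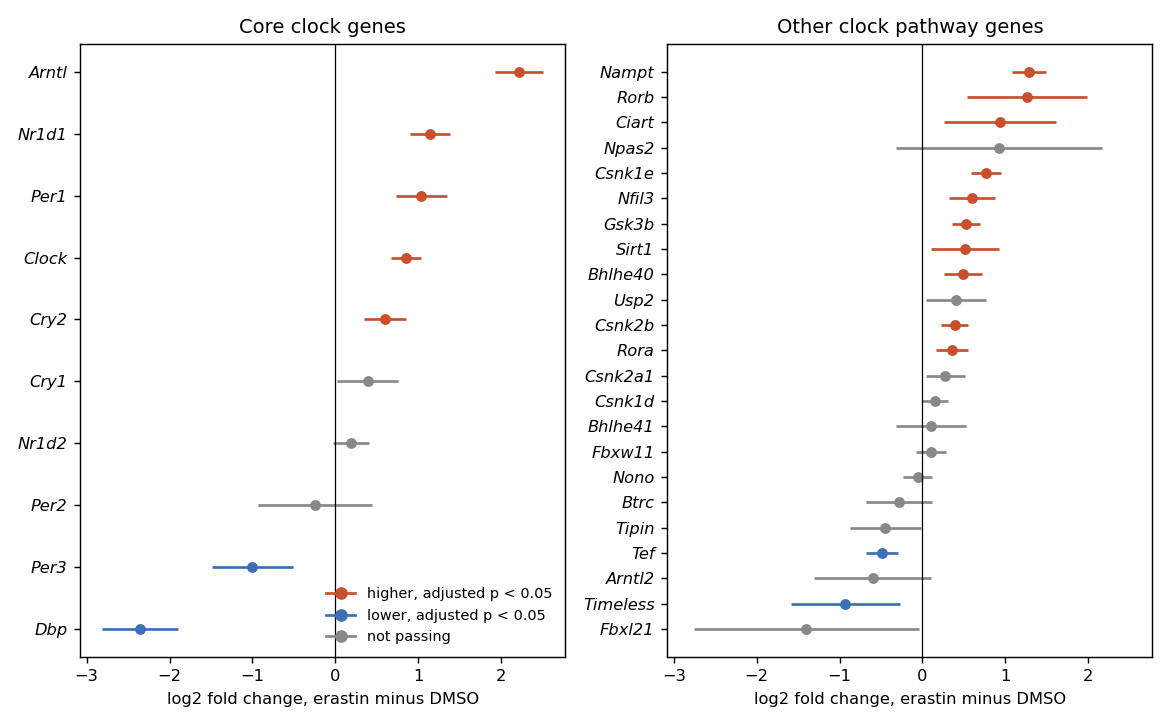
Log2 fold change of erastin minus DMSO (horizontal axis) with 95% intervals for the 10 clock genes (left) and the 23 other clock pathway genes tested (right), 3 libraries per group. Red marks genes that passed as higher, blue those that passed as lower and grey the rest. The clock genes run from -2.35 (Dbp) to 2.22 (Arntl) and the pathway genes from -1.40 (Fbxl21, not passing) to 1.29 (Nampt).

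In 5 of the 7 passing genes (Arntl, Per1, Per3, Nr1d1 and Dbp) erastin replicate 3 lay nearest to the DMSO mean on the log2 scale. Erastin replicate 1 was nearest for Clock and replicate 2 for Cry2. Over all 6028 passing genes of the table, replicate 3 was nearest in 44.1%, replicate 2 in 32.0% and replicate 1 in 23.9%. Without erastin replicate 3 all 7 genes still passed.

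Nr1d1 and Dbp share exonic sequence with genes on the opposite strand, and the strand setting of the counting is not given in the sources used here. Exons of Nr1d1 and the thyroid hormone receptor gene Thra overlap over 263 bases, or 8.55% of the merged exons of Nr1d1. Thra had 60.7, 62.7 and 67.2 CPM in DMSO and 40.5, 40.3 and 45.2 CPM with erastin. Thra thus fell, opposite to Nr1d1, with a log2 fold change of -0.60 (SE 0.095) and an edgeR adjusted p of 0.000131. Dbp overlaps Sphk2, which encodes a sphingosine kinase, over 539 exonic bases, or 18% of its merged exons. Sphk2 had 30.8, 31.2 and 37.2 CPM in DMSO and 32.6, 38.0 and 22.2 CPM with erastin and did not pass (log2 fold change -0.096, 95% interval -0.45 to 0.26, edgeR adjusted p = 0.675). Neither neighbour moved in the direction of its clock gene by a passing amount. The part of reads in the shared stretches was not tested. Elsewhere exonic overlap was small, 4.67% of Cry2 with the noncoding D930015M05Rik (at most 1 read in any library) and 0.439% of Arntl with Gm45355, which was not analysed here.

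**Figure D3:**
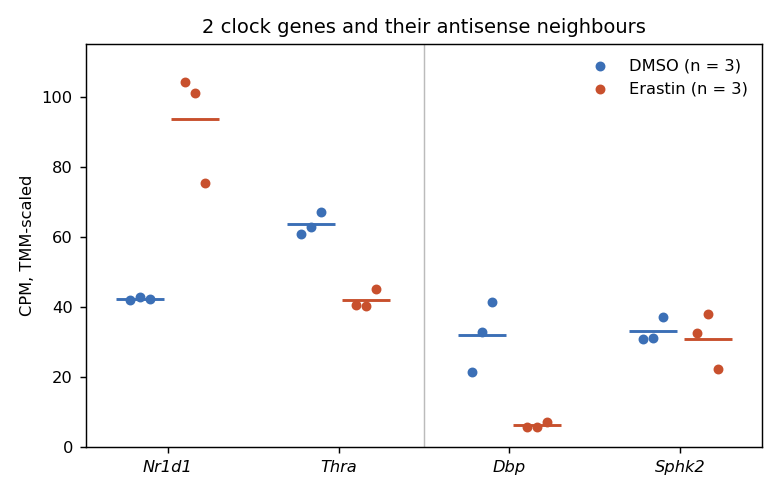
CPM (linear axis from 0) of Nr1d1 and Dbp beside the genes that overlap them on the opposite strand, Thra and Sphk2. Points are libraries, 3 per group, and lines are group means. Nr1d1 rises from a mean of 42.3 to 93.5 CPM while Thra falls from 63.6 to 42.0, and Dbp falls from 31.8 to 6.21 CPM while Sphk2 overlaps between groups at 33.1 and 30.9.

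To compare levels between genes, CPM was divided by the kilobases of merged exons in GENCODE M21, which may differ from the exons counted. In DMSO the order of these levels per length was Nr1d1 (13.8 ± 0.171 CPM per kb, SD, n = 3), Dbp (10.6 ± 3.33), Nr1d2 (9.38 ± 0.885), Clock (3.88 ± 0.172), Cry2 (3.75 ± 0.241), Per1 (3.72 ± 0.42), Cry1 (3.37 ± 0.438), Arntl (1.96 ± 0.294), Per3 (1.23 ± 0.295) and Per2 (0.684 ± 0.0209). The first 3 overlapped with their neighbours in the order, as did the 4 from Clock to Cry1, while Nr1d2 and Clock, Cry1 and Arntl, Arntl and Per3, and Per3 and Per2 were apart. With erastin Nr1d1 remained first at 30.4 ± 5.18 CPM per kb (SD, n = 3). By merged exons Arntl moved from the 8th place to the 3rd (9.05 ± 1.27), not separated from Nr1d2 above it (10.7 ± 0.739) or Per1 below it (7.62 ± 1.34). Dbp moved from the 2nd place to the 8th (2.07 ± 0.29), clear of Cry1 above it (4.42 ± 0.123) and Per3 below it (0.616 ± 0.0735). The order depends on the length used. Divided by the longest transcript, Dbp came first in DMSO at 17.3 ± 5.43 CPM per kb (SD, n = 3), overlapping with Nr1d1 at 15.6 ± 0.193. Cry2 (5.96 ± 0.383) then stood above Clock (5.47 ± 0.243), neighbours from Nr1d1 to Cry1 no longer overlapped, and Cry1 (3.72 ± 0.484) and Arntl (3.68 ± 0.555) did. With erastin, Arntl at 17.0 ± 2.39 CPM per kb of longest transcript (SD, n = 3) was in the 2nd place, apart from Nr1d1 above it (34.4 ± 5.86) and Nr1d2 below it (12.4 ± 0.857). Arntl was 8th in DMSO and Dbp 8th with erastin by both lengths.

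**Figure D4:**
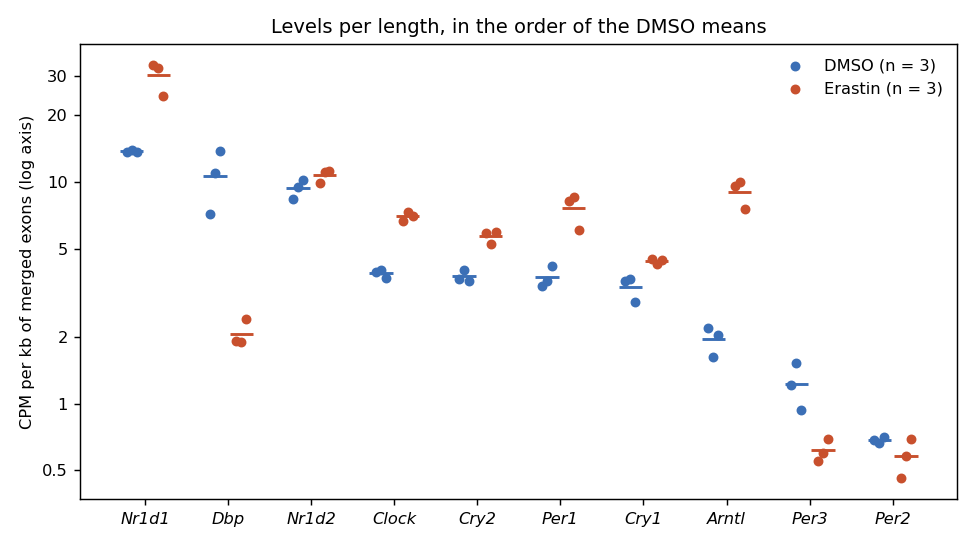
Level per length of each clock gene in each library, in CPM per kb of merged exons on a log axis, with genes in the order of their DMSO means. Points are libraries (3 per group) and lines are group means. Arntl rises from 1.96 to 9.05 and Dbp drops from 10.6 to 2.07 CPM per kb. Arntl goes from the 8th to the 3rd place and Dbp from the 2nd to the 8th.

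Members of one family were also set against each other, as the log2 ratio of CPM in each library (prior count 2), over 7 pairs. The log2 ratio of Per1 to Per3 was 0.70, 0.45 and 1.37 in DMSO and 3.10, 3.04 and 2.33 in erastin libraries, a shift of 1.98. Those of Per1 to Per2 (shift 1.27), Per2 to Per3 (0.71), Nr1d1 to Nr1d2 (0.93) and Arntl to its paralog Arntl2 (2.75) shifted without overlap as well. Each of these 5 pairs had p = 0.10 in a two-sided exact permutation test, the smallest that 3 against 3 libraries allow, and 0.14 after Benjamini-Hochberg adjustment over the 7 pairs, so none could pass. Cry1 to Cry2 went from a mean of -1.07 to -1.28, with overlapping libraries (exact permutation p = 0.20, adjusted 0.233). With 3 libraries per group no pair could pass, so this test cannot decide whether the cryptochromes differed in their response. Clock to Npas2 had a shift of -0.34 (exact permutation p = 0.70, adjusted 0.70) with Npas2 at only 5 to 60 reads a library.

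Around these 10 genes, a list of 24 further clock pathway genes was examined by role. Of the 23 that could be tested, 12 passed, 10 higher and 2 lower, with a median log2 fold change of 0.36. Set against the 43.1% of all genes that passed, the list's share of 12 in 23 is near the background. By direction, 21.6% of all genes tested were higher and 21.5% lower. The list thus had more higher and fewer lower genes than these shares, a difference that was not tested. Hlf was not tested, with at most 12 reads in a library.

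The ROR receptor genes Rora and Rorb, whose products activate Arntl, were both higher. Rora had 53.9 ± 3.85 CPM in DMSO and 69.0 ± 1.92 CPM with erastin (SD, n = 3), with a log2 fold change of 0.36 (edgeR adjusted p = 0.00512). After an offset for GC content and length it did not pass (0.15, edgeR adjusted p = 0.178, with 0.00156 to 0.193 over its 15 alternatives). Rorb, at a low level, had 2.02 ± 0.147 CPM in DMSO and 4.88 ± 0.884 CPM with erastin (SD, n = 3), a log2 fold change of 1.27 (edgeR adjusted p = 0.00735). Nfil3, which competes with DBP for D-boxes, had 31.0 ± 5.82 CPM in DMSO and 47.0 ± 2.37 CPM with erastin (SD, n = 3), a log2 fold change of 0.60 (edgeR adjusted p = 0.0017). Tef, a relative of Dbp that binds the same D-boxes, had 80.9 ± 4.59 CPM in DMSO and 57.8 ± 4.15 CPM with erastin (SD, n = 3), a fall with a log2 fold change of -0.48 (edgeR adjusted p = 0.000559). Among the D-box genes tested, the activator genes Dbp and Tef thus fell while the gene of the repressor Nfil3 rose. Hlf, a relative of Dbp and Tef, was too low to test.

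Bhlhe40, whose protein (DEC1) occupies E-boxes as a repressor, rose (log2 fold change 0.49 with an SE of 0.11, edgeR adjusted p = 0.00184). The paralog Bhlhe41 did not pass (0.10, edgeR adjusted p = 0.70). Ciart, encoding another repressor of the BMAL1 and CLOCK pair, had 4.16, 2.49 and 3.81 CPM in DMSO and 7.54, 7.78 and 4.56 CPM with erastin (log2 fold change 0.93, edgeR adjusted p = 0.0266). That call was lost without DMSO replicate 2 (edgeR adjusted p = 0.106), erastin replicate 1 (0.115) or erastin replicate 2 (0.0998), and its adjusted p ranged from 0.00943 to 0.115 over 15 alternatives. The activator paralogs Npas2 (log2 fold change 0.92, SE 0.58) and Arntl2 (-0.60, SE 0.33) did not pass (edgeR adjusted p = 0.22 and 0.162). Npas2 passed in 1 of its 15 alternatives, without DMSO replicate 2, at a log2 fold change of 1.86 (edgeR adjusted p = 0.0367, the others reaching up to 0.471).

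Of 5 kinase genes whose products phosphorylate clock proteins, 3 passed as higher, against 21.6% of all genes tested. Csnk1e (casein kinase 1 epsilon, which marks PER proteins for degradation) had 59.4 ± 0.728 CPM in DMSO and 101.0 ± 7.36 CPM with erastin (SD, n = 3), a log2 fold change of 0.76 (edgeR adjusted p = 5.48e-06). Gsk3b and Csnk2b had log2 fold changes of 0.53 and 0.39 (edgeR adjusted p = 7.95e-05 and 0.000843). Csnk1d and Csnk2a1 did not pass at 0.15 and 0.27 (edgeR adjusted p = 0.111 and 0.0552), but each passed in 3 of 15 alternatives. For Csnk1d these were total-count scaling and the offset for GC content and length with or without the replicate block (0.24 with the offset alone, edgeR adjusted p = 0.0137, against up to 0.316 in other alternatives). For Csnk2a1 they were total-count scaling, no filter on low counts, and the fit without erastin replicate 2 (0.38, edgeR adjusted p = 0.0142, with up to 0.251 in other alternatives). None of the 4 genes for ubiquitin ligases or proteases of clock proteins passed in edgeR, against 43.1% of all genes tested. In the same test 2 of them (Fbxl21 and Usp2) had an unadjusted p under 0.05, as had 7014 of all 14000 genes. Btrc, Fbxw11, Usp2 and Fbxl21 had log2 fold changes of -0.28, 0.098, 0.40 and -1.40. Usp2 passed in 3 of 15 alternatives (edgeR adjusted p = 0.0376 to 0.171 over all of them). Btrc was at -0.073 without erastin replicate 1 (edgeR adjusted p = 0.772), and passed without erastin replicate 3 (-0.49, edgeR adjusted p = 0.0489) and with the GC and length offset and the block together (0.0349). Fbxl21 passed without DMSO replicate 3 (-1.84, edgeR adjusted p = 0.0165; range over its 15 alternatives 0.0165 to 0.347).

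Nampt, the rate-limiting enzyme of NAD salvage and a known BMAL1 and CLOCK target, had 37.2, 33.5 and 32.7 CPM in DMSO and 84.5, 89.8 and 77.8 CPM with erastin. The groups were far apart, and Nampt rose 2.44-fold (95% interval 2.11 to 2.81, log2 fold change 1.29, SE 0.096, edgeR adjusted p = 1.01e-07). Sirt1, an NAD-dependent deacetylase that acts on clock proteins, had a log2 fold change of 0.51 (edgeR adjusted p = 0.042), but its adjusted p ran from 0.0226 to 0.2 over 15 alternatives and it passed in 7 of them. It was lost in 4 of the 6 fits that left out 1 library, without DMSO replicate 1 (edgeR adjusted p = 0.155), DMSO replicate 2 (0.0571), erastin replicate 1 (0.2) or erastin replicate 2 (0.0515), and with the replicate number as a block (0.055). Timeless, a replication fork protein with a debated clock role in mammals, was lower with a log2 fold change of -0.93 (edgeR adjusted p = 0.0236; 0.00996 to 0.0965 over 15 alternatives). It did not pass without DMSO replicate 1 (edgeR adjusted p = 0.0521), DMSO replicate 3 (0.0582) or erastin replicate 1 (0.0965). Its partner Tipin (-0.45) and Nono (-0.058) did not pass (edgeR adjusted p = 0.0836 and 0.61). Tipin passed in 3 of 15 alternatives, 1 of them without DMSO replicate 2 (-0.60, edgeR adjusted p = 0.0316, with up to 0.239 in other alternatives).

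Likeness to Dbp and Arntl was measured by Pearson's r of log2 CPM over the 6 libraries, among 10339 other genes with a mean of at least 5 CPM. Since the libraries form 2 treatment groups, r mainly reflects the treatment difference and is given as a description. Closest to Dbp were Sumf1, Col6a1 and Man1c1 (r of 0.999, 0.999 and 0.999), with log2 fold changes of -0.51, -1.01 and -0.91. Closest to Arntl were Thbd, Sltm and Aldh1a3 (r of 0.99995, 0.9997 and 0.9995), with log2 fold changes of 1.1, 1.17 and 1.49. As many as 54 genes reached an r of at least 0.99 with Dbp and 145 with Arntl, so these names are the top of long lists.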

How the data were processed

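RNA was measured in 3 DMSO and 3 erastin libraries, grouped by sample titles. Per the labels, rRNA-depleted RNA was made into Ion Proton libraries with PCR amplification. The authors deposited whole-number read counts per gene without normalization, in 1 column per library (0 columns were left unused). The submitters' processing notes name the build mm10, HTSeq 0.9.1 and SAMtools. The aligner, annotation and strand setting are not given in the sources used here. Symbols were matched to GENCODE M21 for 42462 of 43346 identifiers. Exon and transcript lengths and exonic overlaps also came from GENCODE M21 and may differ from the annotation used for counting. No molecular identifiers are described, so intervals do not separate PCR copies from molecules.

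Counts were analysed in R 4.3.3 with edgeR 4.0.16. After filterByExpr at defaults (minimum count 10 in 3 libraries, total 15), 14000 genes were scaled by TMM and tested with treatment as the only term (glmQLFit, glmQLFTest), with Benjamini-Hochberg adjustment over all genes and a threshold of 0.05. Standard errors came from fitted weights and the posterior quasi-dispersion. On simulated counts most changed genes were recovered, and intervals covered true changes of 1 log2 unit less often than nominal. No pair of libraries agreed within sampling noise (chi-square per degree of freedom of at least 11.0). Alternatives were RLE and upper-quartile factors, total-count scaling, other filters, a replicate block, a GC and length offset (mgcv 1.9.3), DESeq2 1.42.0, an adjusted p under 0.01, and leaving out each library. Named genes were the 10 clock genes, a list of 24 further clock genes (the other 2 genes of the planned list are not reported here, a choice that did not use their values), genes overlapping a clock gene, and the 3 genes most like Dbp and Arntl. Members and lists were chosen with earlier results of these data known. Motifs and start windows were chosen after the values were seen.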

Additional observations from a re-analysis of the deposited data

How the results depend on the processing

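The count of clock genes passing (7) stayed between 7 and 9 over 16 alternatives, with 5 to 7 higher and 2 lower in each. Over the same alternatives 4305 to 6104 of all genes passed, 2154 to 3456 as higher and 2151 to 3377 as lower. The counts of 9 passing and 7 higher came with total-count scaling only. With that scaling 3456 of all genes passed as higher, against 3024 in the main fit. The 7 genes kept direction and significance in all 15 alternatives run for each. Arntl ran from 2.09 to 2.33 and Dbp from -2.57 to -2.03 on the log2 scale. Of the other clock genes, Cry1 and Nr1d2 passed with total-count scaling and under no other alternative, and Per2 under none. Over the fits that left out 1 library, 7 clock genes passed each time. The replicate block left 7 clock genes, 11 list genes (against 12) and 5882 of all genes (against 6028). The deviations from group means correlated at a mean of 0.013 between libraries of equal number and at -0.0063 between others, so no pairing was seen. In the paralog ratios the pairing allowed no p under 0.25, which 6 of the 7 pairs reached.

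In the list of 24 genes, 9 to 15 passed over the alternatives. Its count of lower genes (2) was 4 with the replicate block and the GC and length offset together, 1 at an adjusted p under 0.01, and 1 to 3 when 1 library was left out. Values near 0 changed sign without passing: Bhlhe41 ran from -0.0073 (without DMSO replicate 3) to 0.21 when 1 library was left out, and Nono was 0.0067 with total-count scaling. The shift of the Clock to Npas2 ratio ran from -0.91 (without DMSO replicate 2) to 0.20 (without DMSO replicate 3). The cause of these changes was not tested. The 53 to 78 reads of Per2 per library limit what can be said of it.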
